A study of Mus musculus with 18 samples.

Results

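The 10 genes described here encode DNAJ co-chaperones, also called J proteins or HSP40 proteins, of the cytosol and nucleus: Dnaja1, Dnaja2, Dnaja4, Dnajb1, Dnajb2, Dnajb4, Dnajb5, Dnajb6, Dnajc2 and Dnajc7. They were chosen by symbol from the 24421 genes of the deposited count table, and all 10 were found there and passed the filter on low counts. The genes were followed in 4T1, a mammary carcinoma line from BALB/cfC3H mice with a wild-type genotype, and in 4T1R1 and 4T1R2, which were selected separately from 4T1 by repeated exposure to 17-DMAG, an inhibitor of the chaperone HSP90. Both resistant populations are pools of surviving cells, and 4T1 is the parental population. Each population was sequenced untreated and after 1.5 µM 17-DMAG, with 3 biological replicates in each of the 6 groups. The descriptions conflict on the time of exposure before RNA extraction, which is 2 h in the series description and 48 h in the sample records, and on the dose and time used for selection, so no time is attached to the values below.

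J proteins are the partners that choose the work of HSP70 chaperones. Their J domain stimulates ATP hydrolysis by HSP70, which closes HSP70 on the client that the J protein has brought. Class A members resemble bacterial DnaJ. Class B members share its glycine- and phenylalanine-rich linker but lack its zinc-binding repeats. Class C members share only the J domain with bacterial DnaJ. HSP90 receives many of its clients from HSP70, and loss of HSP90 function is known to release the transcription factor HSF1, which binds inverted repeats of the letters GAA in the promoters of chaperone genes.

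Because the heat shock element is the textbook control sequence of chaperone genes, the promoter windows of the members were searched for it. A window ran from 250 bases before to 50 bases after a RefSeq transcription start (GRCm38.p6), and windows were held for 9 of the 10 genes. An element of 3 units, GAA-NN-TTC-NN-GAA or its other strand TTC-NN-GAA-NN-TTC with N for any base, was found in 1 of these 9 genes, against 179 of 27025 genes (0.662%) over all windows. The shorter core of 2 units, GAA-NN-TTC or TTC-NN-GAA, which the longer element contains, was found in 4 of the 9 genes and in 17.0% of all genes. The core was searched after the values were seen. The windows of Dnajb1, Dnajb2, Dnaja2, Dnajb5 and Dnajc7 held neither. Only exact matches were searched, so imperfect units and sequence outside the windows were not covered. The stretches that held a match are shown 5′ to 3′ on the strand of the gene, with the match in capitals, so that they can be read beside the responses given below:
Dnajb6: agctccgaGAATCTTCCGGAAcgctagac
Dnaja1: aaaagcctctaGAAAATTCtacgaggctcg
Dnajb4: ttcgttcgctgTTCTAGAAagtaca
Dnaja4, distal: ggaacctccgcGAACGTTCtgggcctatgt
Dnaja4, proximal: gcctcctggcgGAACCTTCcgccggcgccg

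The stretch of Dnajb6 lies at chr5:29735844-29735872, on the plus strand, and its match begins 46 bases before one RefSeq start and 127 bases before another, within an exon of a protein-coding transcript in GENCODE. That of Dnaja1 lies at chr4:40722333-40722362, on the plus strand, inside the annotated gene, and overlaps an exon of a processed transcript. Its match lies 124 bases before the start in a single window, of 3 held for this gene. In Dnajb4 (chr3:152193846-152193870, minus strand) the match begins 14 bases before the start in a single window, of 2 held. It lies inside the annotated gene but in no exon. The stretches of Dnaja4 lie at chr9:54699458-54699487 and chr9:54699496-54699525, on the plus strand, inside the annotated gene. Their matches lie 90 and 52 bases before the start in a single window, of 2 held. The distal stretch is in no exon, and the proximal stretch overlaps an exon of a protein-coding transcript. A match describes these letters only, and no measurement of binding was analysed here.

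The totals ran from 23354461 to 55094630 counts per library, of which the ribosomal precursor Rn45s took 9.54% to 15.6%. In treated 4T1, the counts of replicates 1 and 2 were closer than those of any other pair within a group. Their chi-square per gene was 1.10, against 2.04 to 2.22 in the 17 other pairs. As this was below the limit of 1.5, these replicates were averaged and counted as 1 sample. This leaves n = 2 for 17-DMAG-treated 4T1, n = 3 for the other groups and 17 libraries in all. The library numbers of 4T1R1 form a run of their own, and effects of that run and of the 4T1R1 population cannot be told apart. The epithelial markers Krt8, Krt18, Epcam and Cdh1 were present in every library, at 23.2 to 819 CPM. Of the 9 markers of leukocytes, endothelium and fibroblasts, 8 stayed at or below 0.606 CPM and 5 of these were at 0 in most libraries, while Pdgfra stood at 12.1 to 33.2 CPM. Levels below are CPM (counts relative to the library total) scaled by TMM, a factor that sets the bulk of genes equal between libraries, and log2FC values are from edgeR's quasi-likelihood test, adjusted over the 13507 genes tested. Bulk RNA cannot tell a stronger response in each cell from a larger share of responding cells.

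17-DMAG raised 7 of the 10 genes in parental 4T1 cells, and lowered none. The same numbers were called in 4T1R1, and 6 genes were called higher in 4T1R2. Over all genes tested, 18.4%, 13.9% and 6.18% were called higher in the respective populations, and 17.9%, 14.3% and 4.35% lower. The median log2FC of the 10 genes was 0.89, 0.55 and 0.35 in 4T1, 4T1R1 and 4T1R2, against 0.00064, −0.0086 and −0.0019 for all genes tested. As the members were chosen with earlier results of these data known, the counts and medians beside those of all genes are descriptions only. The genes fell into a group of 5 with large increases (Dnajb1, Dnaja1, Dnaja4, Dnajb4 and Dnajb2), a pair with small increases (Dnaja2 and Dnajc2), and 3 that were not called in any population (Dnajb6, Dnajc7 and Dnajb5).

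**Figure D1:**
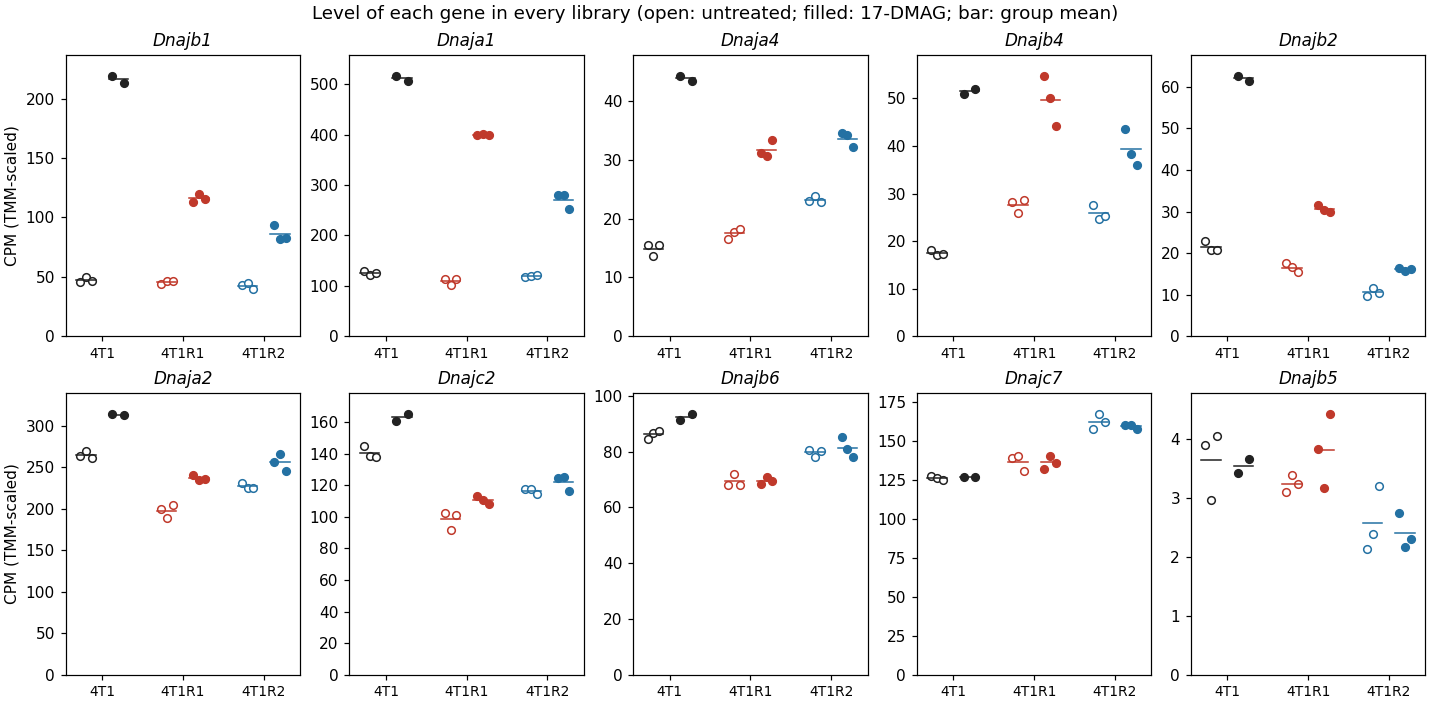
Level of each of the 10 genes (TMM-scaled CPM, linear axis from 0, one panel per gene) in every library of 4T1, 4T1R1 and 4T1R2, with untreated libraries as open points, 17-DMAG-treated libraries as filled points and group means as bars. For Dnajb1 the treated libraries fall from 213 to 219 CPM in 4T1 to 113 to 119.6 CPM in 4T1R1 and 81.8 to 93.6 CPM in 4T1R2. Dnajb6, Dnajc7 and Dnajb5 were not called between untreated and treated libraries in any population.

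Dnajb1 (chr8:83608193-83612653), the classical heat-inducible HSP40 of class B, responded most in 4T1. Its level was 45.6, 49.6 and 46.9 CPM in the untreated 4T1 libraries and 219 and 213 CPM after 17-DMAG. In 4T1R1 it was 44.0, 46.8 and 46.8 CPM untreated and 113, 119.6 and 115 CPM treated. In 4T1R2 it was 43.4, 44.7 and 39.8 CPM untreated and 93.6, 81.8 and 82.6 CPM treated. The treated libraries lay above the untreated ones in each population, and the treated libraries of the 3 populations did not overlap each other. In parental cells its log2FC was 2.19 (SE 0.0501, adjusted P-value 7.44e-32), against 1.34 (SE 0.0476, adjusted P-value 1.22e-24) in 4T1R1 and 1.01 (SE 0.0492, adjusted P-value 1.64e-19) in 4T1R2, which are 4.56-, 2.53- and 2.02-fold increases.

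Dnaja1 (chr4:40722150-40737149), a farnesylated class A protein that serves HSC70 in the cytosol, came next. Its level was 129, 121 and 126 CPM in untreated 4T1 and 517 and 507 CPM after 17-DMAG. In 4T1R1 it rose from 114, 102 and 114 CPM to 398, 401 and 399 CPM. In 4T1R2 it rose from 117, 120.3 and 123 CPM to 281, 279.5 and 252 CPM. No groups overlapped between treatments, and again the treated libraries were highest in 4T1 and lowest in 4T1R2. The log2FC was 2.03 (SE 0.0404), 1.86 (SE 0.0380) and 1.17 (SE 0.0380) in 4T1, 4T1R1 and 4T1R2, with adjusted P-values of 7.15e-34, 1.76e-33 and 8.82e-26. Dnaja1 lies over part of Smu1 on the other strand, and the use of strand in the counting is not given in the sources used here. The log2FC of Smu1 was 0.11, 0.029 and −0.032 in the 3 populations.

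Dnaja4 (chr9:54698873-54716315), a class A relative of Dnaja1, rose from 15.5, 13.6 and 15.5 CPM to 44.2 and 43.3 CPM in 4T1. In 4T1R1 its libraries read 16.6, 17.6 and 18.2 CPM untreated and 31.1, 30.6 and 33.3 CPM treated. In 4T1R2 they read 22.98, 23.8 and 22.8 CPM untreated and 34.5, 34.2 and 32.1 CPM treated. The untreated libraries were thus ordered from 4T1 up to 4T1R2 with no overlap, while the treated ones were highest in 4T1. The log2FC was 1.56 (SE 0.0693), 0.86 (SE 0.0641) and 0.53 (SE 0.0623), with adjusted P-values of 8.60e-22, 8.45e-14 and 3.91e-08. Wdr61, which overlaps Dnaja4 on the other strand, had log2FC values of 0.053, 0.040 and 0.10.

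Dnajb4 (chr3:152178511-152210302), a class B protein close to Dnajb1 in sequence, rose from 18.2, 17.2 and 17.2 CPM to 51.0 and 52.0 CPM in 4T1. In 4T1R1 the libraries read 28.3, 25.8 and 28.7 CPM untreated and 54.8, 50.0 and 44.1 CPM treated. In 4T1R2 they read 27.6, 24.7 and 25.3 CPM untreated and 43.6, 38.3 and 36.0 CPM treated. Both resistant populations therefore began above 4T1, and the treated libraries of 4T1R1 lay on either side of those of 4T1. The log2FC was 1.55 (SE 0.0774), 0.85 (SE 0.0679) and 0.60 (SE 0.0699), with adjusted P-values of 3.87e-20, 5.94e-13 and 3.83e-08.

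Dnajb2 (chr1:75236406-75245692), whose product binds ubiquitinated clients and delivers them to the proteasome, rose from 22.98, 20.9 and 20.8 CPM to 62.7 and 61.5 CPM in 4T1. In 4T1R1 it rose from 17.6, 16.7 and 15.4 CPM to 31.6, 30.4 and 30.01 CPM. In 4T1R2 it rose from 9.79, 11.6 and 10.3 CPM to 16.5, 15.7 and 16.2 CPM. The 6 groups did not overlap for this gene except that treated 4T1R2 shared the range of untreated 4T1R1, and every treated 4T1R2 library was below every untreated 4T1 library. The log2FC was 1.53 (SE 0.0682), 0.89 (SE 0.0673) and 0.62 (SE 0.0768), with adjusted P-values of 9.56e-22, 1.01e-13 and 1.65e-07.

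The small increases were those of Dnaja2 and Dnajc2. Dnaja2 (chr8:85537633-85555344), the class A protein that works beside Dnaja1 with HSC70, stood at 264, 269 and 261 CPM in untreated 4T1 and at 314 and 313 CPM after 17-DMAG. In 4T1R1 it stood at 199.8, 188 and 204 CPM untreated and 240.0, 234 and 236 CPM treated, and in 4T1R2 at 231, 225 and 225 CPM untreated and 256, 266 and 245 CPM treated. The treated libraries exceeded the untreated ones everywhere, yet the treated libraries of 4T1R1 remained below untreated 4T1. The log2FC was 0.24 (SE 0.0349), 0.26 (SE 0.0321) and 0.17 (SE 0.0319), increases of 18.4%, 19.8% and 12.7% with adjusted P-values of 2.84e-07, 3.52e-08 and 0.000176.

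Dnajc2 (chr5:21757267-21785251), which sits on the ribosome with its HSP70 partner Hspa14 and serves nascent chains, stood at 145, 138 and 138 CPM in untreated 4T1 and at 161 and 165 CPM after 17-DMAG. In 4T1R1 the libraries read 103, 91.8 and 101 CPM untreated and 113, 111 and 108 CPM treated. In 4T1R2 they read 118, 118 and 114 CPM untreated and 124, 125 and 116 CPM treated, and here the groups overlapped. The log2FC was 0.22 (adjusted P-value 5.47e-05) in 4T1, 0.17 (adjusted P-value 0.00103) in 4T1R1 and 0.067 (adjusted P-value 0.308, 95% interval −0.018 to 0.15) in 4T1R2. With libraries scaled by total counts alone, which moves the median of all genes by −0.11 in the 4T1 response, the value in 4T1 was 0.10 (adjusted P-value 0.0821). Hspa14 itself had log2FC values of −0.077, 0.0028 and −0.037, none of them called, but with total counts alone it was called lower in 4T1 (−0.19, adjusted P-value 0.000325).

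The other 3 genes were not called in any of the 3 responses. Dnajb6 (chr5:29735688-29818134), a class B protein known for keeping polyglutamine proteins from aggregating, was the gene with the 3-unit element in its window. It stood at 84.6, 86.8 and 87.5 CPM in untreated 4T1 and at 91.5 and 93.5 CPM treated, which do not overlap. Its log2FC in 4T1 was 0.099 (SE 0.0437, 95% interval 0.0027 to 0.20, adjusted P-value 0.0738). When the averaged pair was entered as separate libraries, this became 0.095 with an adjusted P-value of 0.0430. Without treated 4T1 replicate 2 it was 0.11 and was also called (adjusted P-value 0.0490). Its log2FC was 0.0050 in 4T1R1 and 0.029 in 4T1R2, with intervals of −0.085 to 0.095 and −0.059 to 0.12. Gm5129 overlaps it on the other strand and was not among the genes tested.

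Dnajc7 (chr11:100582818-100620168), whose tetratricopeptide repeats bind both HSP70 and HSP90, stood at 125 to 127 CPM in untreated 4T1 and at 127 CPM in both treated samples. The log2FC was 0.010 (95% interval −0.075 to 0.095) in 4T1, −0.0053 (−0.081 to 0.070) in 4T1R1 and −0.023 (−0.098 to 0.052) in 4T1R2. With total counts alone the value in 4T1 was −0.11 (adjusted P-value 0.0314), which is close to the shift of the median gene under that scaling. The neighbour Cnp, which overlaps Dnajc7 on the other strand, had a log2FC of −0.42 in 4T1, and its part in the value of Dnajc7 was not tested. Nkiras2 overlaps Dnajc7 too, with a log2FC of 0.095 in 4T1.

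Dnajb5 (chr4:42949814-42959425), a class B relative of Dnajb1 and Dnajb4, was the least abundant member, with 57 counts in its lowest library. Its libraries read 3.91, 2.97 and 4.06 CPM in untreated 4T1 and 3.43 and 3.66 CPM treated. In 4T1R1 they read 3.11, 3.40 and 3.24 CPM untreated and 3.84, 3.18 and 4.43 CPM treated, and in 4T1R2 they read 2.14, 2.40 and 3.21 CPM untreated and 2.75, 2.18 and 2.30 CPM treated. The groups overlapped in each population. The 95% intervals of its log2FC ran from −0.46 to 0.37, −0.15 to 0.61 and −0.51 to 0.32.

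**Figure D2:**
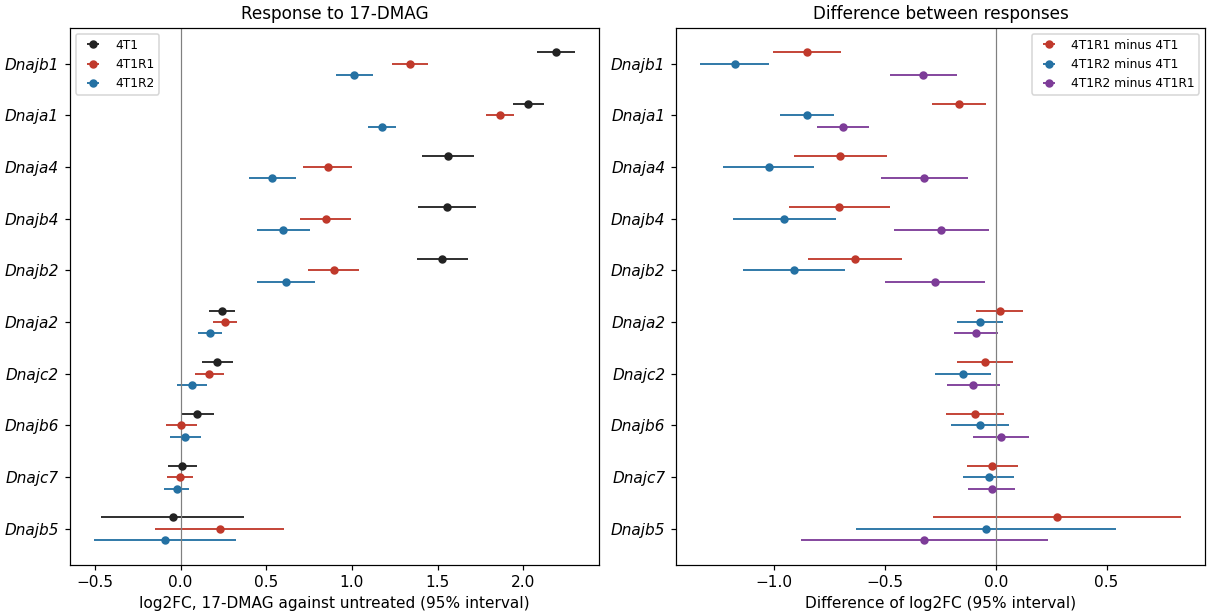
Left, log2FC of each gene after 17-DMAG in 4T1 (black), 4T1R1 (red) and 4T1R2 (blue); right, differences between these responses on the log2 scale, with points for the estimate and lines for the 95% interval in both panels. The differences of Dnajb1, Dnaja4, Dnajb4 and Dnajb2 against 4T1 lie between −0.63 and −1.18, while the intervals of the differences of Dnajb6, Dnajc7 and Dnajb5 include 0.

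Whether the responses differ between populations was tested as an interaction. All differences from 4T1 use the same 4T1 libraries, so those of 4T1R1 and 4T1R2 are not independent of each other. Against the 4T1 response, that of 4T1R1 was lower in 5 of the 10 genes and higher in none, where 9.08% of all genes tested were called lower and 9.16% higher. The response of 4T1R2 was also lower in 5 genes and higher in none, beside 8.16% and 9.62% of all genes. The median difference of the 10 genes was −0.13 for 4T1R1 (0.020 with total counts alone) and −0.50 for 4T1R2.

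Dnajb1 had the largest of these differences, −0.85 (SE 0.0696, 95% interval −1.0 to −0.70, adjusted P-value 1.54e-12) in 4T1R1 and −1.18 (SE 0.0708, −1.33 to −1.02, adjusted P-value 6.22e-17) in 4T1R2. For Dnaja4 the difference was −0.70 in 4T1R1 and −1.03 in 4T1R2, and for Dnajb4 it was −0.71 and −0.95. That of Dnajb2 was −0.63 and −0.91. Dnaja1 stood apart from these 4 in 4T1R1, where its response was only 0.16 lower on the log2 scale than in 4T1 (log2 difference −0.16, SE 0.0554, adjusted P-value 0.0314), against −0.85 (SE 0.0556, adjusted P-value 8.06e-16) in 4T1R2.

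The call of Dnaja1 in 4T1R1 rested on several libraries and on the scaling. With total counts alone the difference was −0.016 (adjusted P-value 0.884), under a scaling that moves the median of all genes by 0.15 in this comparison. The call was also lost without untreated 4T1R1 replicate 1 (−0.14) or 3 (−0.14), treated 4T1R1 replicate 1 (−0.16) or 3 (−0.16), untreated 4T1 replicate 2 (−0.14) or treated 4T1 replicate 3 (−0.18).

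Between the resistant populations, 3 genes responded less in 4T1R2 than in 4T1R1 and none more. The 4T1 levels are not part of this difference, but the 4T1 libraries entered the shared filter, scaling and estimate of spread. This comparison called 0.918% of all genes lower and 1.21% higher. Dnaja1 showed the largest gap, −0.69 (SE 0.0533, 95% interval −0.81 to −0.57, adjusted P-value 2.50e-12), followed by Dnajb1 with −0.33 (SE 0.0686, adjusted P-value 0.00416) and Dnaja4 with −0.32 (SE 0.0896, adjusted P-value 0.0432). Dnajb2 and Dnajb4 had differences of −0.28 and −0.25 that were not called (adjusted P-values 0.161 and 0.196). The call of Dnaja4 was lost without the low-count filter (adjusted P-value 0.0550) and in 9 of the 12 fits that left out a single library, namely all but untreated 4T1R1 replicate 3, treated 4T1R1 replicate 2 and treated 4T1R2 replicate 2, with values of −0.34 to −0.29.

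The balance between Dnaja1 and Dnajb1, the members with the largest log2FC in each population, was followed as a ratio and was not tested. The ratio of Dnaja1 to Dnajb1 CPM went from 2.65 ± 0.201 (SD, n = 3) to 2.37 ± 0.0157 (n = 2) in 4T1. In 4T1R1 it went from 2.40 ± 0.206 to 3.44 ± 0.0814 (both n = 3), and in 4T1R2 from 2.83 ± 0.223 to 3.16 ± 0.228. The ranges of mean ± SD overlapped in 4T1R2. The treated ratio in 4T1R1 was thus above all untreated ratios by more than their SD. These ratios are not divided by gene length and only their change is of use.

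Without treatment, the members differed between populations in both directions. In untreated 4T1R1, 3 genes were higher and 5 lower than in untreated 4T1, where 25.2% of all genes tested were called higher and 27.5% lower. In untreated 4T1R2, 3 were higher and 6 lower, beside 25.6% and 26.9% of all genes. The medians of the 10 genes were −0.18 and −0.13, against 0.0075 and 0.0068 for all genes. Both comparisons use the same untreated 4T1 libraries.

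The genes called higher in each resistant population were Dnajb4, Dnaja4 and Dnajc7. Dnajb4 was 57.6% higher in 4T1R1 (log2FC 0.66, adjusted P-value 8.94e-10) and 48.0% higher in 4T1R2 (log2FC 0.57, adjusted P-value 4.42e-08). Dnaja4 was higher by 0.23 in 4T1R1 (adjusted P-value 0.00441) and by 0.64 in 4T1R2 (adjusted P-value 1.41e-10). Dnajc7, the gene with repeats for HSP70 and HSP90, was higher by 0.12 (adjusted P-value 0.00397) and 0.36 (adjusted P-value 7.38e-12), with untreated libraries at 139, 141 and 131 CPM in 4T1R1 and 158, 167 and 162 CPM in 4T1R2. The overlapping gene Cnp was higher by 0.45 and 0.44 in the same comparisons, and its part in the value of Dnajc7 was not tested.

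The genes called lower included Dnajb2, whose log2FC was −0.38 (adjusted P-value 1.10e-05) in 4T1R1 and −1.04 (adjusted P-value 3.46e-15) in 4T1R2, 2.05-fold lower in the latter. Dnajc2 had log2FC values of −0.51 and −0.27, and Dnaja2 of −0.42 and −0.22, with adjusted P-values of at most 1.65e-07. Dnajb6 had a log2FC of −0.32 in 4T1R1 (adjusted P-value 1.08e-08), with libraries at 68.1, 71.8 and 68.1 CPM. In 4T1R2 its value was −0.11 (adjusted P-value 0.0158), with libraries at 80.6, 78.2 and 80.4 CPM, and the call was lost without untreated 4T1 replicate 3 (−0.10) or untreated 4T1R2 replicate 2 (−0.10).

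The pair with the largest responses in 4T1 began level with the parental population or slightly below it. Dnaja1 had a log2FC of −0.19 in 4T1R1 (adjusted P-value 6.18e-05) and −0.064 in 4T1R2 (adjusted P-value 0.172, 95% interval −0.15 to 0.022). Dnajb1 had −0.047 in 4T1R1 (adjusted P-value 0.457, −0.16 to 0.065) and −0.15 in 4T1R2 (adjusted P-value 0.0126). The latter call was lost without untreated 4T1 replicate 2 (−0.12) or untreated 4T1R2 replicate 3 (−0.10). Dnajb5 had −0.17 (adjusted P-value 0.426) in 4T1R1 and −0.51 (adjusted P-value 0.0168) in 4T1R2, where the groups overlapped and the call was lost without untreated 4T1 replicate 1 (−0.46) or 3 (−0.42) or untreated 4T1R2 replicate 1 (−0.37) or 2 (−0.47).

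**Figure D3:**
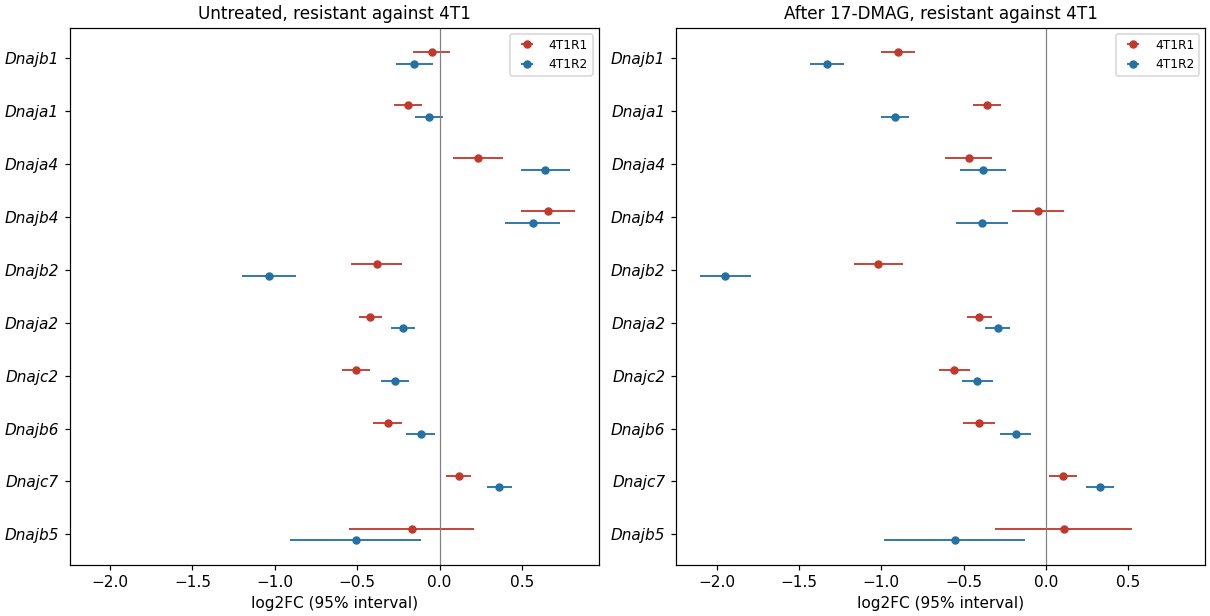
log2FC of each gene in 4T1R1 (red) and 4T1R2 (blue) against 4T1, without treatment (left) and after 17-DMAG (right), on a shared axis with points for the estimate and lines for the 95% interval. Dnajb4 and Dnaja4 lie above 0 on the left, at 0.23 to 0.66, and below 0 on the right, at −0.050 to −0.47, while Dnajb2 moves from −0.38 and −1.04 to −1.02 and −1.95.

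After 17-DMAG, the members were also compared between each resistant population and treated 4T1, a comparison added after the values were seen. In treated 4T1R1, 7 genes were lower and 1 higher, where 27.6% of all genes tested were called lower and 25.1% higher. In treated 4T1R2, 9 were lower and 1 higher, beside 28.0% and 25.8% of all genes. The medians of the 10 genes were −0.41 (−0.23 with total counts alone) and −0.40, with n = 2 for treated 4T1, whose libraries both comparisons share.

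Dnajb2 lay lowest in this comparison, at −1.02 in 4T1R1 and −1.95 in 4T1R2, which is 3.85-fold lower in the latter (adjusted P-value 2.06e-25). Dnajb1 had −0.90 and −1.33, and Dnaja1 had −0.36 and −0.92. Dnaja4 ended at −0.47 and −0.38 although it had begun higher in both populations. The members with small or uncalled responses, Dnajc2 (−0.56 and −0.42), Dnaja2 (−0.40 and −0.29) and Dnajb6 (−0.41 and −0.18), were called lower in both. Without treatment the values were −0.51 and −0.27 for Dnajc2, −0.42 and −0.22 for Dnaja2, and −0.32 and −0.11 for Dnajb6. Of Dnajb6, the call in treated 4T1R2 was lost with total counts alone (−0.096, adjusted P-value 0.0667).

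The exceptions were Dnajb4, Dnajc7 and Dnajb5. Dnajb4 had a log2FC of −0.050 in treated 4T1R1 (adjusted P-value 0.582, 95% interval −0.21 to 0.11), so its smaller fold response there began from a higher level and ended near that of 4T1. In treated 4T1R2 it was −0.39 (adjusted P-value 1.42e-05). Dnajc7 was the gene called higher, by 0.10 in 4T1R1 (adjusted P-value 0.0240) and 0.33 in 4T1R2 (adjusted P-value 1.14e-09). The first of these calls was lost without treated 4T1R1 replicate 2 (0.080) or treated 4T1 replicate 3 (0.11). Dnajb5 had 0.11 (adjusted P-value 0.659) in 4T1R1 and −0.55 (adjusted P-value 0.0151) in 4T1R2, the latter call being lost without treated 4T1 replicate 3 (−0.50) or treated 4T1R2 replicate 2 (−0.48).

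To order the members among themselves, levels were divided by transcript length (CPM per kb over RefSeq exons). In untreated 4T1 the order was Dnaja2 with 90.7 ± 1.48, Dnajc2 with 65.8 ± 1.85, Dnajc7 with 54.2 ± 0.532 and Dnaja1 with 21.7 ± 0.728 CPM per kb (SD, n = 3). Dnajb6 followed with 20.8 ± 0.363 CPM per kb, and its libraries (20.4 to 21.1) overlapped those of Dnaja1 (20.9 to 22.4). Dnajb1 had 14.8 ± 0.640, Dnajb2 and Dnajb4 both had 6.46 CPM per kb, Dnaja4 had 4.94 ± 0.351 and Dnajb5 had 0.990 ± 0.161. By this length, Dnaja2 had the highest level of the 43 J-protein genes tested in untreated 4T1 and stayed first among the 10 in all 6 groups. In both resistant populations Dnajc7 took the second place before treatment, with 58.8 ± 2.30 CPM per kb against 46.2 ± 2.76 for Dnajc2 in 4T1R1 and 69.7 ± 2.07 against 54.6 ± 0.942 in 4T1R2.

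After 17-DMAG in 4T1, Dnaja1 moved to the second place with 88.6 ± 1.16 CPM per kb (n = 2) behind Dnaja2 with 107 ± 0.20, and Dnajb1 reached 67.5 ± 1.33. The transcripts of Dnaja1 are mostly untranslated sequence, 5776 bases of exons with a longest coding length of 1191, so the order depends on the length used. Per kb of coding sequence, Dnaja2 led the 10 members in untreated 4T1 (214 against 105 CPM per kb for Dnaja1), and Dnaja1 led them after 17-DMAG (429.9 against 253). By that length Dnajc5, which is not a member, stood above Dnaja2 in untreated 4T1, with 261 CPM per kb.

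The summed level of the 10 genes rose from 287 ± 2.87 to 469.8 ± 1.13 CPM per kb in 4T1, from 244.5 ± 4.98 to 353 ± 2.86 in 4T1R1 and from 276.5 ± 2.42 to 338 ± 12.1 in 4T1R2. As a share of all 43 J-protein genes tested, the 10 genes went from 36.4% to 48.2% in 4T1, from 34.1% to 42.8% in 4T1R1 and from 36.0% to 40.3% in 4T1R2. Within the 10, the share of Dnaja1 rose from 7.57% to 18.9% in 4T1 and that of Dnajb1 from 5.16% to 14.4%. The share of Dnaja2 meanwhile went from 31.6% to 22.8% and that of Dnajc7 from 18.9% to 11.6%. The shares within the 10 depend on the length used. Per kb of coding sequence, 56 of them, over the 10 genes and 6 groups, moved by more than their SD. Only 4 did not. The sums and the shares of all 43 J-protein genes were not recomputed with that length. These sums and shares are descriptions, and were not tested.

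**Figure D4:**
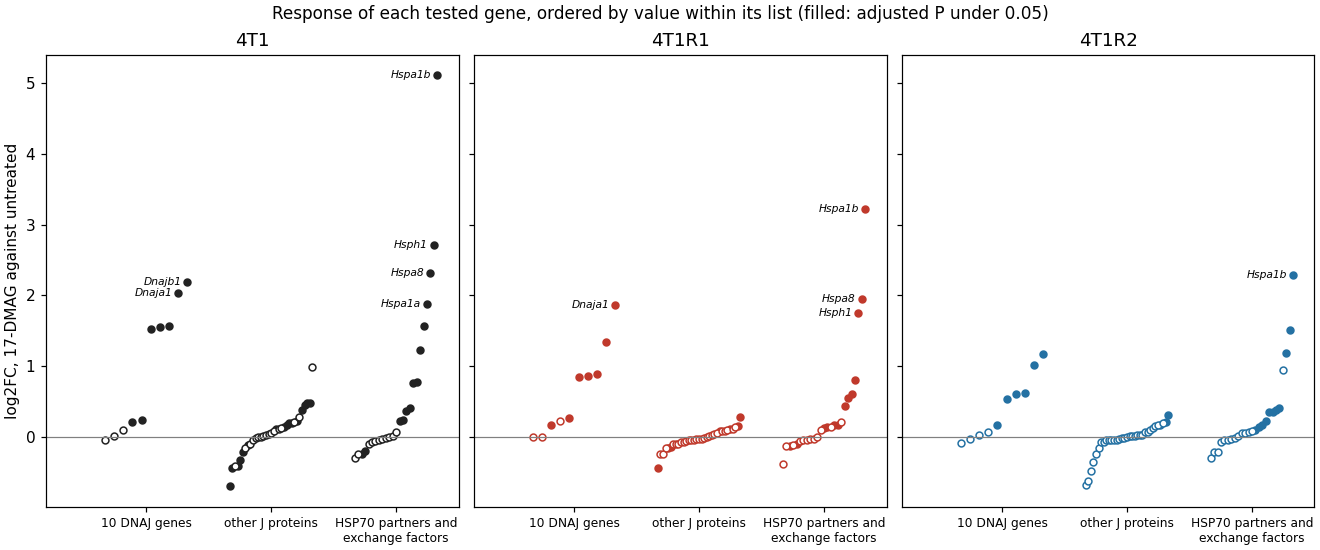
log2FC after 17-DMAG (vertical axis) of every tested gene of 3 lists in 4T1, 4T1R1 and 4T1R2, ordered by value within a list along the horizontal axis, with filled points for an adjusted P-value under 0.05 and names for genes above 1.7. In 4T1 the other J proteins called higher reach 0.48, below the 5 strongly responding members, and Hspa1b stands highest at 5.11.

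Most of the other J proteins had values near 0. Of 39 other J proteins listed, 33 were tested, and 10 were called higher and 6 lower in 4T1, with a median log2FC of 0.052, beside 18.4% and 17.9% of all genes. In 4T1R1, 4 were higher and 3 lower (13.9% and 14.3% of all genes), and in 4T1R2, 3 were higher and none lower (6.18% and 4.35%). These counts were not stable. In 4T1, 6 were higher without treated replicate 3 and 2 with total counts alone. In 4T1R1, 2 were higher without treated replicate 2, none was lower without treated replicate 1, and 1 was lower with total counts alone. In 4T1R2, 0 were higher without untreated replicate 1, 1 without untreated replicate 2 or treated replicate 2, and 0 with total counts alone, which called 1 lower. Among the larger increases called in 4T1 were those of Dnajc27 (0.48, adjusted P-value 6.55e-07) and of Hscb (0.48, adjusted P-value 0.0240), a co-chaperone of iron-sulfur cluster assembly. Hscb, at 3.64 CPM untreated, had overlapping groups and lost its call without untreated 4T1 replicate 2 (0.41) or 3 (0.41) or treated 4T1 replicate 3 (0.24).

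The largest decreases called among the other J proteins in 4T1 were those of Dnajb9 (−0.70, adjusted P-value 3.23e-06), a J protein of the endoplasmic reticulum, Dnajc9 (−0.43, adjusted P-value 1.01e-07), which also handles histones, and Dnajc22 (−0.41, adjusted P-value 5.28e-05). Of the 12 J proteins of the endoplasmic reticulum in the list, 2 were higher and 4 lower in 4T1, 1 was lower in 4T1R1 and 2 were higher in 4T1R2. Of the 7 mitochondrial ones, 3 were higher in 4T1, 1 in 4T1R1 and none in 4T1R2. No call was made in the other direction among the mitochondrial genes. Over all genes tested, 18.4% were called higher and 17.9% lower in 4T1. The shares were 13.9% and 14.3% in 4T1R1, and 6.18% and 4.35% in 4T1R2. The counts of these 2 smaller lists were not followed in the alternative fits, where those of the full list were unstable.

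HSP70 proteins with their exchange factors and cofactors made a list of 26 genes, of which 25 were tested. Some of these, such as the mitochondrial Grpel2, act outside the cytosol and nucleus, so the list is wider than the partners of the 10 members. In 4T1, 12 were higher and 2 lower, in 4T1R1, 11 were higher and 2 lower, and in 4T1R2, 11 were higher and none lower, against the same shares of all genes. With total counts alone, 5 were lower in 4T1 and 1 in 4T1R1, where 1 was also lower without untreated replicate 3, and none was lower in 4T1 without treated replicate 3. Hspa1b, the inducible HSP70, had log2FC values of 5.11, 3.23 and 2.29 in 4T1, 4T1R1 and 4T1R2. Its copy Hspa1a is nearly identical, so counts may be split between them. Hsph1, the HSP110 exchange factor that acts with Dnajb1 and HSC70 on aggregates, had 2.72, 1.75 and 1.18. Hspa8, which encodes HSC70 itself, had 2.32, 1.95 and 1.51, so for these 3 partners too the values stood in the order 4T1, 4T1R1, 4T1R2. The genes called lower in 4T1 were Grpel2 (−0.24), a mitochondrial exchange factor, and Bag5 (−0.20), and both calls were lost without treated 4T1 replicate 3 (−0.22 and −0.18).

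Across the 17 libraries, the log2 levels most like those of Dnajb1 among 13506 genes were those of Serpinh1 (Pearson r = 0.989), Ahsa2 (0.986), Ubxn4 (0.985), Azi2 (0.984) and Trim65 (0.982). Hspa1b ranked 7, Hspa8 ranked 8 and Hsph1 ranked 10. Among the members Dnaja1 came closest, at rank 12 (r = 0.970), followed by Dnaja4 at rank 172 (r = 0.865), Dnajb4 at rank 197 (r = 0.857) and Dnajb2 at rank 208 (r = 0.851). Dnaja2 ranked 928, Dnajc2 2025, Dnajb6 3994 and Dnajb5 4081, and Dnajc7 had a negative correlation (r = −0.26). Dnaja2, Dnajc2 and Dnajb6 resembled each other more than Dnajb1, with r = 0.953 for Dnaja2 and Dnajc2, 0.893 for Dnajc2 and Dnajb6 and 0.818 for Dnaja2 and Dnajb6. These correlations describe 17 libraries that share treatment, population and scaling, and carry no test.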

How the data were processed

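RNA from 18 cultures was depleted of ribosomal RNA and sequenced from stranded libraries. Per the labels, the authors aligned reads to mm10/GRCm38 with STAR, counted them per gene with featureCounts (Subread 1.6.2) and deposited raw counts, without normalization. The use of strand and of reads with several matches is not given in the sources used here. Between 65.6% and 70.8% of counts from 1 to 12 were even, so the reads of a pair appear to be counted singly.

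Analysis used edgeR 4.0.16 (R 4.3.3): filterByExpr, TMM, 1 fit of 17 libraries in 6 groups (common biological coefficient of variation 0.0376), quasi-likelihood tests, Benjamini-Hochberg adjustment over 13507 genes and a threshold of 0.05. The code was tested on simulated data. P-values measure the spread between cultures of the same line. Alternatives were DESeq2 1.42.0, other scalings and filters, fits of only the compared groups, a replicate block, 18 separate libraries, no Rn45s and each library left out. The comparison between treated groups, the coding length and the core motif were added after the values were seen.

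The members and lists were chosen with earlier results of these data known. Genes named were the 10 members, the 3 largest called changes in each direction in 4T1 among other J proteins and HSP70 partners, plus Hspa8, Hspa1b, Hsph1 and Hspa14, the 5 genes most like Dnajb1, and genes overlapping a member. A result named by this rule is not reported here. Positions are from GENCODE vM21 (GRCm38), and lengths from its RefSeq-matched transcripts. Promoter windows are from RefSeq (GRCm38.p6). Plots used matplotlib 3.10.9 (Python 3.11.15).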

Additional observations from a re-analysis of the deposited data

Results flagged for a closer look

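The differences between populations in the response to 17-DMAG that passed the threshold of the interaction test (edgeR's quasi-likelihood test) are collected here as values, on the log2 scale. The response of 4T1R1 minus that of 4T1 was −0.85 for Dnajb1, −0.71 for Dnajb4, −0.70 for Dnaja4, −0.63 for Dnajb2 and −0.16 for Dnaja1. The response of 4T1R2 minus that of 4T1 was −1.18 for Dnajb1, −1.03 for Dnaja4, −0.95 for Dnajb4, −0.91 for Dnajb2 and −0.85 for Dnaja1. The response of 4T1R2 minus that of 4T1R1 was −0.69 for Dnaja1, −0.33 for Dnajb1 and −0.32 for Dnaja4. The calls of Dnaja1 (−0.16) and of Dnaja4 (−0.32) were lost without single libraries, as given above.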

How the results depend on the processing

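RLE scaling, DESeq2, a minimum of 10 counts in every library and a fit without Rn45s changed no call of a member. Total counts alone, which shifts the median of all genes by −0.11 in the 4T1 response, 0.15 in the difference of 4T1R1 from 4T1 and 0.18 between treated 4T1R1 and treated 4T1, changed the most. With it, 1 member was called lower in the 4T1 response (Dnajc7), 1 higher in the difference of 4T1R1 from 4T1 (Dnaja2, 0.17) and 5 lower in the difference of 4T1R2 from 4T1R1 (adding Dnajb2 and Dnajb4). Directions turned for Dnajb6 (−0.017) and Dnajc7 (−0.11) in the 4T1 response, for Dnajc7 (0.028) in that of 4T1R1, and for Dnajb6 (−0.018), Hscb (−0.029) and Bag5 (−0.031) in that of 4T1R2. In the difference of 4T1R1 from 4T1 they turned for the members' median (0.020), Dnajb6 (0.056), Dnajc7 (0.13) and Dnajc2 (0.10), in that of 4T1R2 from 4T1 for Dnajb5 (0.024) and Dnajc7 (0.036), in that of 4T1R2 from 4T1R1 for Dnajb6 (−0.056), and between treated 4T1R1 and treated 4T1 for Dnajb4 (0.13). Of these only Dnajc7 in the 4T1 response was called, and the cause was not tested beyond the shift of the median.

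Same-numbered libraries did not deviate together across the genes as a whole: correlations of their deviations were −0.026 to 0.040. Libraries with different numbers gave −0.047 to 0.039. A pairing that affects few genes could not show in these values. A replicate block over 18 libraries changed 1 call, the difference of 4T1R2 from 4T1 for Dnajc2 (−0.14, adjusted P-value 0.0492 against 0.0656), as did fitting only the groups compared (−0.14, adjusted P-value 0.0462). Leaving out 1 library turned directions of values near 0 that were not called. In the responses the ranges were −0.17 to 0.039 for Dnajb5 in 4T1; −0.0088 to 0.030 for Dnajb6, −0.038 to 0.016 for Dnajc7, −0.058 to 0.12 for Hscb and −0.033 to 0.030 for Hspa14 in 4T1R1; and −0.23 to 0.098 for Dnajb5, −0.0064 to 0.058 for Dnajb6, −0.098 to 0.018 for Dnajc9, −0.059 to 0.17 for Hscb and −0.013 to 0.068 for Bag5 in 4T1R2. In the differences of 4T1R1 from 4T1 they were −0.016 to 0.042 for Dnaja2 and −0.048 to 0.0061 for Dnajc7, in that of 4T1R2 from 4T1 −0.18 to 0.15 for Dnajb5, and in that of 4T1R2 from 4T1R1 −0.011 to 0.053 for Dnajb6 and −0.039 to 0.015 for Dnajc7. Between treated 4T1R1 and treated 4T1 they were −0.13 to 0.027 for Dnajb4 and −0.0091 to 0.22 for Dnajb5, and the number of members called higher was 0 to 1. Without treated 4T1 replicate 3 that group holds 1 sample, which is assumed to vary like the other groups.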
